A study of Mus musculus with 18 samples.

Results

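The Cyp2c genes were examined in livers and liver tumours of mice with and without the miR-181ab1 cluster. The 10 genes, Cyp2c29, Cyp2c37, Cyp2c38, Cyp2c40, Cyp2c50, Cyp2c54, Cyp2c67, Cyp2c68, Cyp2c69 and Cyp2c70, were taken by their symbols from a table of 54838 genes. Bulk RNA-seq covered 18 samples of male C57BL/6 mice aged 36 weeks, in 6 groups of 3. Wild type (WT) mice were littermates of the global knockout (GKO) mice, which lack Mir181a-1 and Mir181b-1 in every tissue. DEN-treated mice of both genotypes, given diethylnitrosamine (a liver carcinogen) once at 25 mg/kg into the peritoneum on postnatal day 12, gave tumours and the surrounding non-tumour livers. Untreated mice of the same age and of both genotypes gave normal livers. No label ties a tumour to a non-tumour liver of the same mouse or states that the samples of a group are from different mice, so a p-value measures the spread between these samples.

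Cyp2c enzymes are haem proteins of the endoplasmic reticulum, abundant in hepatocytes, that add oxygen to drugs, steroids, fatty acids and bile acids with electrons passed on by the reductase Por. Several of them turn arachidonic acid into epoxides, which the hydrolase Ephx2 then opens to diols. In mice the family is larger than in humans, lies mostly in one gene cluster, and holds genes that respond to the receptor Nr1i3 (also called CAR) as well as genes known to be higher in female livers, such as Cyp2c40 and Cyp2c69.

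All 10 genes lie on chromosome 19 of mm10, between 39269405 and 40187333, a stretch of 918 kb. In their order along it they are Cyp2c29, Cyp2c38, Cyp2c67, Cyp2c68, Cyp2c40, Cyp2c69, Cyp2c37, Cyp2c54, Cyp2c50 and Cyp2c70, and Cyp2c29, Cyp2c37 and Cyp2c50 are on the plus strand. Over the 45 pairs, their coding sequences were between 66.8% and 98.1% identical, with a median of 79.1%. Single linkage at 90% identity gave 2 sets of close paralogs. Cyp2c37, Cyp2c50 and Cyp2c54 were 95.1% to 96.1% identical to each other, and the neighbours Cyp2c67, Cyp2c68, Cyp2c40 and Cyp2c69 were 96.5% to 98.1% identical. Cyp2c29, Cyp2c38 and Cyp2c70 stood alone.

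The likeness limits how far reads can be told apart. Of all stretches of 50 bases in its transcripts, the share found in no other gene was 39.7% for Cyp2c40, 45.7% for Cyp2c69, 47.2% for Cyp2c67 and 56.7% for Cyp2c68. For Cyp2c37, Cyp2c54 and Cyp2c50 the shares were 69.9%, 74.3% and 81.7%, and for Cyp2c38, Cyp2c29 and Cyp2c70 they were 92.6%, 95.8% and 100%. How the authors treated reads that map to several genes is not given in the sources used here. The values of the 7 genes in paralog sets are therefore uncertain singly, and sums over each set are given beside them for tumours and non-tumour livers.

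**Figure D1:**
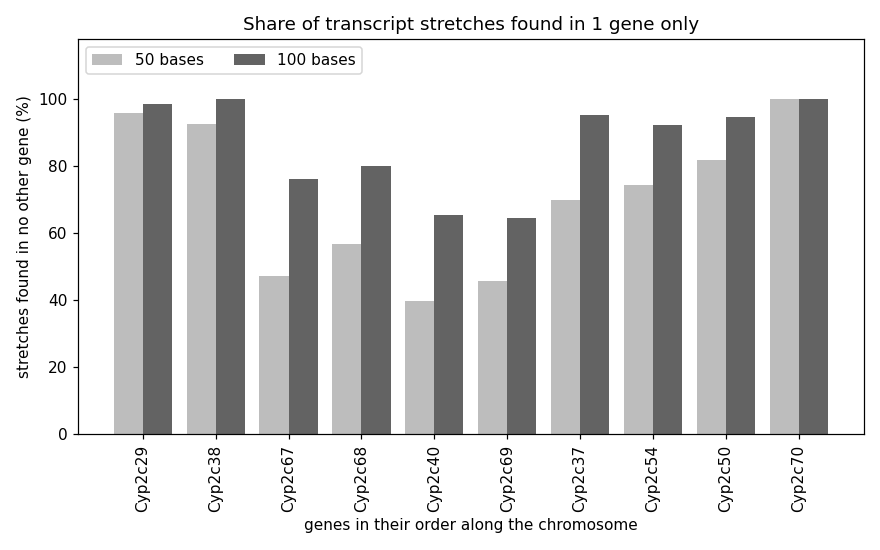
Share of transcript stretches of 50 and of 100 bases that occur in no other gene (vertical axis, %), for the 10 Cyp2c genes in their order along the chromosome. The 4 neighbours in the middle, Cyp2c67 to Cyp2c69, are the lowest at both lengths, with 64.6% to 80.2% of their 100-base stretches found in 1 gene only.

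Short promoter sequences are shown for some members. Paralogs of one set did not move alike between tumours and non-tumour livers, and the part of the promoters in this was not tested. The lines give 100 bases of the RefSeq promoters of GRCm38.p6 (the build of mm10), read 5′ to 3′ on the gene's strand, and capitals mark CAAAGTC. This is the start of CAAAGTCCA, a form of the sequence bound by the liver transcription factor Hnf4a.
Cyp2c67 (chr19:39649118-39649217, minus strand): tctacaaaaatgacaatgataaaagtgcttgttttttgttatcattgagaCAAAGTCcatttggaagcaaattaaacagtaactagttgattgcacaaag
Cyp2c68 (chr19:39741129-39741228, minus strand): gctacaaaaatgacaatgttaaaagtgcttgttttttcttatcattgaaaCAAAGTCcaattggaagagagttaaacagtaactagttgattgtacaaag
Cyp2c40 (chr19:39812810-39812909, minus strand): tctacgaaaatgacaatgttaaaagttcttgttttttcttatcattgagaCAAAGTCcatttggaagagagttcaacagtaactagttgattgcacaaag
Cyp2c69 (chr19:39886795-39886894, minus strand): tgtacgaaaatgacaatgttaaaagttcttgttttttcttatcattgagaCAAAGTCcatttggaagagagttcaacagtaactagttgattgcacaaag
Cyp2c37 (chr19:39992258-39992357, plus strand): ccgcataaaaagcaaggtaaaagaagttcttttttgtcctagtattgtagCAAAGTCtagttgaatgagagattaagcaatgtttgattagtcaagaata
Cyp2c70 (chr19:40187301-40187400, minus strand): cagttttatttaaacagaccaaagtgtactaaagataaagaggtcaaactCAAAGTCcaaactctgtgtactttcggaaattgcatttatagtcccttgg

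The promoter table, with 250 bases before and 50 after each start site, held 9 of the 10 genes and not Cyp2c54. On either strand, CAAAGTCCA was in 5 of the 9 promoters (Cyp2c40, Cyp2c67, Cyp2c68, Cyp2c69 and Cyp2c70) and in 0.475% of all 32851 promoters. CAAAGTC, which the longer run contains, was in 7 of the 9, those 5 with Cyp2c29 and Cyp2c37, and in 4.44% of all. The runs of the 4 neighbouring paralogs were alike over the printed stretch, so they are not separate observations. A match describes the letters of this window and is not evidence of binding.

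The mature miRNAs of the deleted cluster share the seed shown in capitals, bases 2 to 8 counted from the 5′ end.
mmu-miR-181a-5p: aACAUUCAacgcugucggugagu
mmu-miR-181b-5p: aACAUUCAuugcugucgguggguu

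The 3′ UTRs of the 10 Cyp2c genes, between 78 and 1375 bases long with a median of 250, were searched on the sense strand for the complement of the seed, TGAATGT, and for the 8-base form TGAATGTA that contains it. None of the 10 held either run. Over all 20050 genes with a 3′ UTR of at least 50 bases, 15.2% held the shorter run and 4.76% the longer, and among the 12823 genes whose 3′ UTR length lay in the range of the Cyp2c genes 7.14% held the shorter run. Cyp2c38 alone set the upper end of this range, and the other members had 335 bases or fewer, so lengths were matched only loosely. Other forms of the site were not searched.

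Between 11925060 and 20751391 reads per sample fell on genes, with a median of 16973783, as recovered from the deposited values. The hepatocyte markers (11 of 12 found) summed to between 146208 and 256490 TPM in every sample, where TPM is the level of a gene per length of transcript, scaled to a total of 1000000 per sample. The targeted precursors could not check the genotype labels, because Mir181a-1 and Mir181b-1 had 0 reads in every library of both genotypes except 1 read of Mir181a-1 in GKO tumour 3. WT tumours 1 and 2 were more alike (r = 0.982 over genes) than any other pair of tumours (0.911 to 0.950). WT non-tumour 2 stood apart within the family, and the values without it are described with that sample.

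The summed TPM of the 10 genes was lower in tumours than in non-tumour livers in both genotypes. It was 1594, 1585 and 1406 in WT normal livers and 1396, 1433 and 2181 in GKO normal livers. In WT non-tumour livers it was 1299, 2797 and 1626, and in GKO non-tumour livers 2852, 1739 and 2425. The tumours were all below every liver without tumour, at 569, 516 and 241 in WT and 827, 642 and 505 in GKO. As means, WT tumours had 442 ± 177 (SD, n = 3) against 1907 ± 788 in WT non-tumour livers, 4.31-fold lower. GKO tumours had 658 ± 162 against 2339 ± 562 in GKO non-tumour livers, 3.55-fold lower. The sum was 0.153% ± 0.0106 of all TPM in WT normal livers and 0.0442% ± 0.0177 in WT tumours. In bulk tissue, fewer cells of a type and less RNA per cell cannot be told apart.

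**Figure D2:**
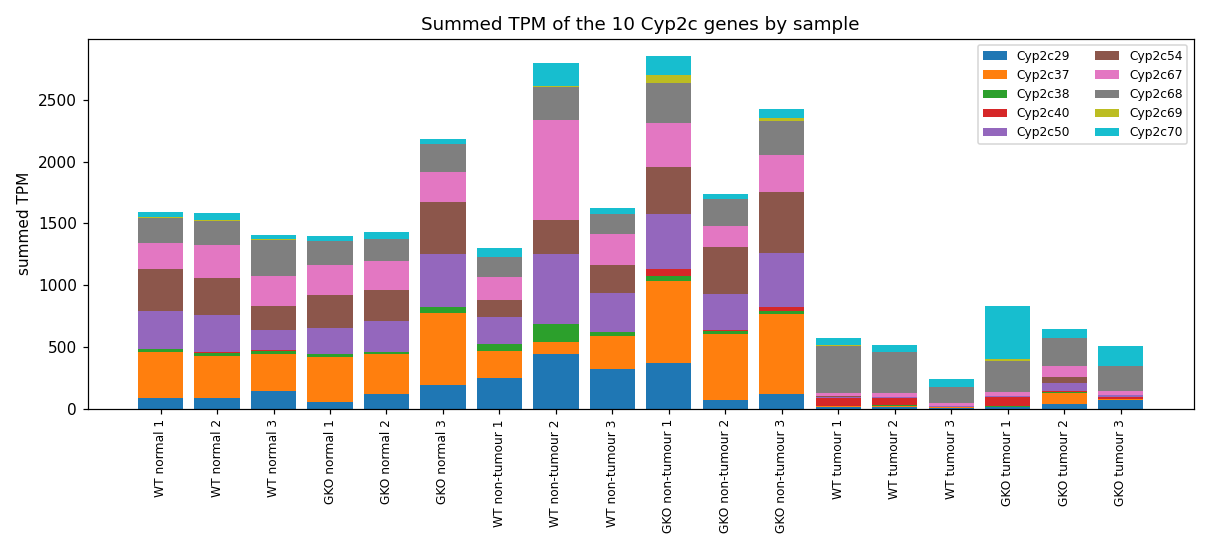
Summed TPM of the 10 Cyp2c genes (vertical axis, from 0) in each of the 18 samples, with 1 colour per gene. All 6 tumours lie at or below 827 TPM, and Cyp2c68 (grey) and Cyp2c70 (light blue) make up most of what is left in 5 of them.

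The make-up of the sum changed with its size. Cyp2c68 made up 10.7% ± 1.62 (SD, n = 3) of it in WT non-tumour livers and 61.5% ± 7.85 in WT tumours. In GKO the shares were 11.7% ± 0.587 and 34.9% ± 4.17. Cyp2c70 was the most abundant member in GKO tumour 1, with 51.2% of the sum there, and Cyp2c68 was so in the other 5 tumours. Cyp2c37 led in all 6 normal livers, with 21.0% to 26.9% of the sum, and in all GKO non-tumour livers, with 23.3% to 30.7%. In the WT non-tumour livers Cyp2c29 or Cyp2c67 led.

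Tumours were compared with non-tumour livers in each genotype, to show which genes of the family moved. In WT mice 6 of the 10 genes were lower in tumours (limma on log2(TPM + 1), Benjamini-Hochberg adjusted p under 0.05 over 14003 genes) and 0 were higher. Of all genes tested, 4.23% were called and 2.07% were called lower. All 10 genes reached the minimum mean level for testing, 0.5 TPM. The groups did not overlap for the 6 genes called, as for 13.9% of all genes in this direction. The median log2 fold change was -3.93 over the 10 genes and -0.02 over all genes.

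Cyp2c54, an enzyme that oxidises arachidonic acid, had 134, 275 and 227 TPM in WT non-tumour livers and 4.92, 2.62 and 1.73 in WT tumours. Its log2 fold change of -5.72 (SE 0.388, adjusted p = 0.00149) was the largest fall in the family with a pseudocount of 1, while with 0.1 that of Cyp2c38 was larger (-6.88 against -6.12). Cyp2c50 went from 217, 566 and 314 TPM to 11.4, 6.17 and 6.21, a log2 fold change of -5.30 (SE 0.41, adjusted p = 0.00158). Both groups were far apart for either gene. Cyp2c37 was at 221, 91.2 and 268 TPM in WT non-tumour livers, with the low value in the second, and at 9.15, 7.07 and 9.81 in the tumours (log2 fold change -4.20, SE 0.418, adjusted p = 0.00382). The 3 paralogs together summed to 771 ± 183 TPM (SD, n = 3) in WT non-tumour livers and 19.7 ± 5.09 in WT tumours, 39.1-fold lower.

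Cyp2c29, an epoxygenase strongly induced through Nr1i3, had 249, 445 and 319 TPM in WT non-tumour livers and 9.64, 16.3 and 4.18 in WT tumours. Its log2 fold change was -5.06 (SE 0.467, adjusted p = 0.00291). Cyp2c38, its closest relative among the members, was a low gene with 53.2, 151 and 32.8 TPM against 1.05, 1.32 and 0, the last being no read in WT tumour 3 (log2 fold change -5.28, SE 0.592, adjusted p = 0.00613). Cyp2c38 shares 94.2% of its coding sequence with Cyp2c39, which is no member.

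The set of 4 neighbouring paralogs did not move as one. Cyp2c67 had 190, 811 and 251 TPM in WT non-tumour livers and 26.5, 27.1 and 24.1 in WT tumours. It was called lower (log2 fold change -3.66, SE 0.525, adjusted p = 0.0151), but not without WT tumour 1 or WT tumour 2, where the adjusted p was 0.0675 or 0.0676, nor with these like tumours averaged as 1 sample (0.066). Cyp2c68 was at 163, 268 and 160 TPM against 384, 332 and 127, and the groups overlapped (log2 fold change 0.40, SE 0.468, adjusted p = 0.694). Cyp2c40 was at 1.85, 0.601 and 2.29 TPM in WT non-tumour livers and at 63.4, 62.6 and 0.556 in the tumours. WT tumours 1 and 2, the pair that was most alike, were high and WT tumour 3 was as low as the non-tumour livers. Over the 3 tumours Cyp2c40 was not called (log2 fold change 2.91, SE 1.39, adjusted p = 0.308), and without WT tumour 3 it was called higher (4.70, adjusted p = 0.00186).

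Cyp2c69 stayed under 1.5 TPM in all 6 samples, between 0.208 and 0.608 in WT non-tumour livers and between 0.064 and 1.44 in WT tumours. Summed over the 4 paralogs, the level was 617 ± 403 TPM (SD, n = 3) in WT non-tumour livers, from 355 to 1080, and 350 ± 174 in WT tumours, from 151 to 476. These sums overlapped. Their means differed by 1.76-fold, and by 1.10-fold without WT non-tumour 2, which had the sum of 1080 TPM. Cyp2c70, which hydroxylates bile acids to muricholic acids in the mouse and has no close paralog, was at 69.4, 188 and 52.3 TPM in WT non-tumour livers and at 57.5, 59.5 and 67.4 in WT tumours. It was not called (log2 fold change -0.52, SE 0.465, adjusted p = 0.599).

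**Figure D3:**
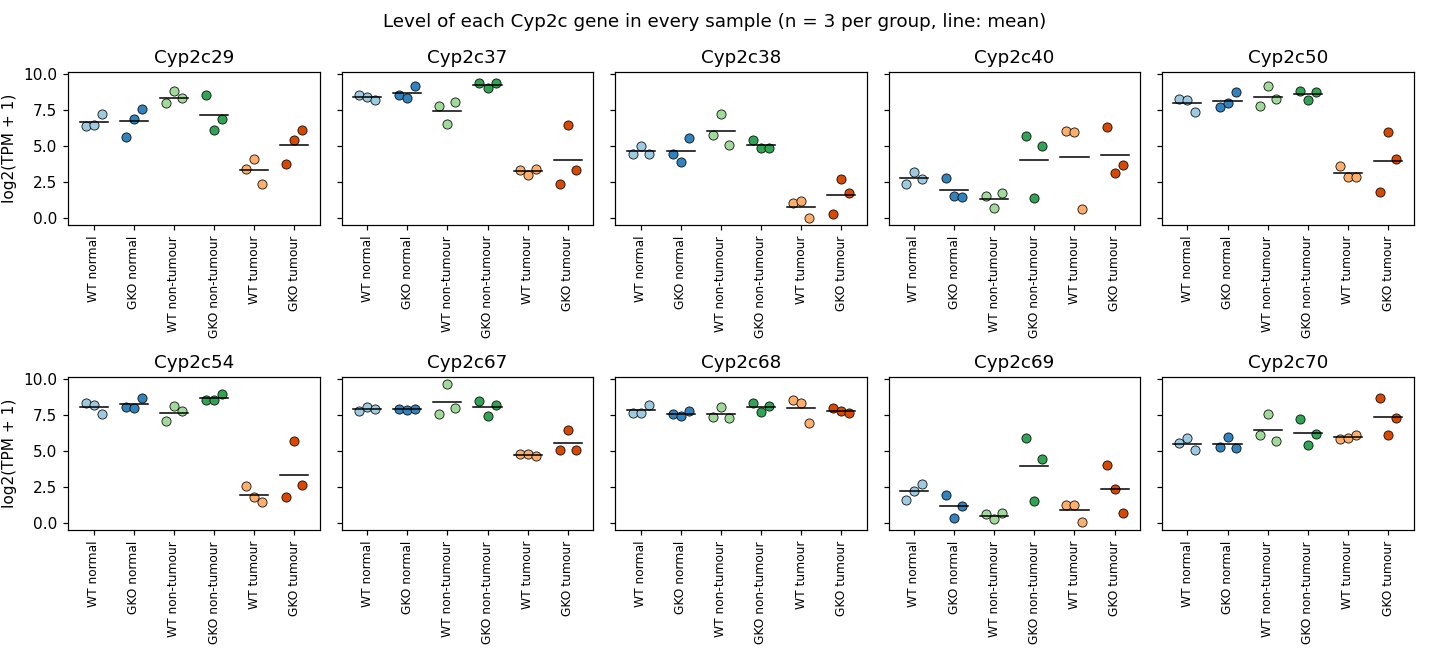
Level of each of the 10 Cyp2c genes as log2(TPM + 1) (vertical axis) in the 3 samples of each of the 6 groups, with a line at the group mean. Cyp2c37, Cyp2c38, Cyp2c50, Cyp2c54 and Cyp2c67 lie lower in all tumours than in all livers without tumour. Cyp2c40 and Cyp2c69 spread widely within the GKO non-tumour livers.

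In GKO mice 5 of the 10 genes were lower in tumours than in non-tumour livers and 0 were higher. Of all 14092 genes tested, 11.7% were called and 3.97% were called lower. The groups did not overlap for the 5 genes, as for 12.7% of all genes in this direction. All 5 were among the 6 called in WT, in a comparison that shares no sample with this one. The median log2 fold change was -2.28 over the 10 genes and 0.20 over all genes. The count rested on single libraries. It was 0 without GKO non-tumour 3, 1 without GKO tumour 3, 3 without GKO non-tumour 2 and 1 with no filter on low values, while the log2 fold changes of these 5 genes kept their direction.

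Cyp2c37 had 665, 534 and 649 TPM in GKO non-tumour livers and 4.09, 88.1 and 8.88 in GKO tumours (log2 fold change -5.22, SE 0.937, adjusted p = 0.0179). Cyp2c54 had 382, 384 and 495 TPM against 2.51, 51.3 and 5.23 (log2 fold change -5.32, SE 0.894, adjusted p = 0.0147). Cyp2c50 had 451, 293 and 437 TPM against 2.49, 62.9 and 15.7 (log2 fold change -4.64, SE 0.92, adjusted p = 0.0233). In all 3 genes GKO tumour 2 was the highest tumour and still below every non-tumour liver. Their sum was 1430 ± 195 TPM (SD, n = 3) in GKO non-tumour livers and 80.4 ± 106 in GKO tumours, 17.8-fold lower. GKO tumour 2 set the tumour mean with 202 TPM, and without it the sum was 73.4-fold lower, so these folds give no order between the genotypes.

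Cyp2c38 was at 42.0, 28.7 and 28.3 TPM in GKO non-tumour livers and at 0.226, 5.67 and 2.34 in GKO tumours (log2 fold change -3.47, SE 0.564, adjusted p = 0.0134). Cyp2c67 was at 356, 171 and 298 TPM against 33.1, 90.1 and 33.8, with no overlap (log2 fold change -2.47, SE 0.458, adjusted p = 0.0196). Cyp2c29 had 371, 68.3 and 117 TPM against 12.4, 40.7 and 68.4, so that the highest tumour just reached the lowest non-tumour liver. It was not called (log2 fold change -2.10, SE 0.758, adjusted p = 0.11), but it was with all 18 samples in one fit (adjusted p = 0.04).

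Cyp2c68 was again not called, with overlapping groups. It was at 322, 215 and 277 TPM in GKO non-tumour livers and 255, 223 and 198 in GKO tumours (log2 fold change -0.25, SE 0.249, adjusted p = 0.502). Cyp2c70 was at 153, 41.8 and 71.6 TPM against 423, 67.6 and 160 (log2 fold change 1.10, SE 0.709, adjusted p = 0.315). GKO tumour 1, at 423 TPM, was the highest of the 18 samples for this bile acid enzyme. Cyp2c40 had 49.8, 1.63 and 30.8 TPM in GKO non-tumour livers and 78.5, 7.92 and 11.7 in GKO tumours. Its log2 fold change was 0.36 (SE 1.22, adjusted p = 0.859). Cyp2c69 had 60.5, 1.95 and 21.3 TPM against 15.5, 4.14 and 0.619 (log2 fold change -1.62, SE 1.19, adjusted p = 0.372). For either gene the groups overlapped. The sum of Cyp2c40, Cyp2c67, Cyp2c68 and Cyp2c69 was 602 ± 200 TPM (SD, n = 3) in GKO non-tumour livers, from 390 to 788, and 317 ± 69.6 in GKO tumours, from 244 to 382. Those groups did not overlap and differed by 1.90-fold in their means.

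**Figure D4:**
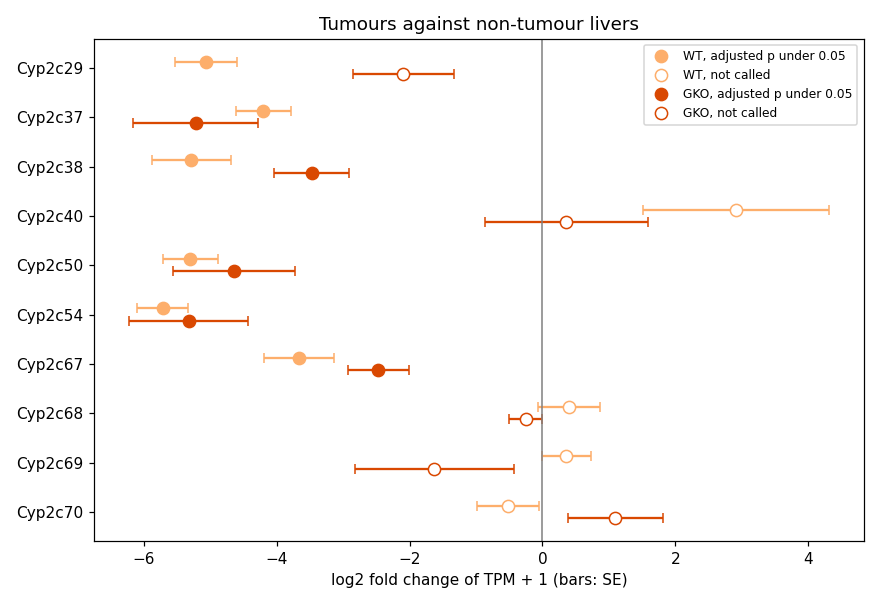
Log2 fold change of TPM + 1 between tumours and non-tumour livers (horizontal axis, bars are SE) for the 10 Cyp2c genes in WT and GKO mice, with filled points for an adjusted p under 0.05. The filled points, 6 in WT and 5 in GKO, all lie at or below -2.47, and Cyp2c68 lies near 0 in both genotypes.

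Markers of the pericentral zone were lower in tumours together with these genes. Of all genes, 4.23% were called in WT and 11.7% in GKO, as given above. Of the 10 pericentral markers, genes of hepatocytes around the central vein where drug-metabolising P450 enzymes are richest, 7 were called lower in WT tumours and 6 in GKO tumours. Their sum was 10180 to 15710 TPM in WT non-tumour livers and 339 to 769 in WT tumours, and 6019 to 13782 in GKO non-tumour livers and 180 to 2340 in GKO tumours. Glul, which makes glutamine in the cells next to the central vein, had 488, 159 and 715 TPM in WT non-tumour livers and 49.98, 42.5 and 18.5 in WT tumours. In GKO mice it had 1114, 448 and 538 TPM against 6.38, 209 and 87.7. Of the 11 hepatocyte markers, 1 was called higher and 0 lower in WT tumours, and 4 higher and 1 lower in GKO tumours. Their log2 fold changes lay between -2.75 and 1.40 in WT and between -1.27 and 2.00 in GKO. Of the 10 periportal markers, 1 was called higher in WT tumours, and 3 were called higher and 1 lower in GKO tumours. The part of zonation in the values of the Cyp2c genes was not tested.

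Markers of other cell types were summed in the same groups, where 4.23% of all genes were called in WT and 11.7% in GKO. Of the 6 cholangiocyte markers, 4 reached the level for testing and 0 were called in either genotype. All 6 summed to 36.0 to 76.9 TPM in WT non-tumour livers and 22.2 to 54.0 in WT tumours. In the GKO groups the sums were 30.4 to 53.6 and 37.6 to 959 TPM. Most of the sum in GKO tumours was Spp1, at 34.0, 934 and 536 TPM. The 6 stellate cell and fibroblast markers summed to 44.6 to 65.4 TPM in GKO non-tumour livers and to 86.9 to 160 in GKO tumours, where 4 were called higher and 1 lower, and to 37.2 to 57.1 and 46.9 to 83.0 in the WT groups, where 0 were called. The 6 macrophage markers, of which 0 were called in either genotype, summed to 51.0 to 344 TPM in WT non-tumour livers and 31.8 to 65.6 in WT tumours, and to 97.8 to 500.1 and 34.6 to 116 in the GKO groups. Of the 6 endothelial markers, 0 were called in WT and 2 were called higher in GKO tumours. They summed to 34.6 to 63.2 TPM in WT non-tumour livers and 62.6 to 78.5 in WT tumours. In GKO these sums were 56.4 to 74.4 and 59.5 to 92.7 TPM. Of the 6 lymphocyte markers, 4 were tested and 0 called in either genotype. Lymphocyte sums in non-tumour livers and tumours were 5.15 to 23.9 and 6.81 to 16.6 TPM in WT. In GKO they were 8.96 to 16.1 and 4.45 to 8.84 TPM. The part of these cell types was not tested.

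GKO and WT tumours were compared to ask whether the deletion changed the family in tumours. By limma, 0 of the 10 genes were called, and 0.0215% of all 13964 genes were. At an unadjusted p under 0.05 there was 1 member, Cyp2c29, as were 8.87% of all genes, and voom on recovered reads also called 0 members. Cyp2c29 had 9.64, 16.3 and 4.18 TPM in WT tumours and 12.4, 40.7 and 68.4 in GKO tumours (log2 fold change 1.78, SE 0.676, adjusted p = 0.535), and the groups overlapped. Cyp2c70 was higher in every GKO tumour than in every WT tumour, with 67.6 TPM the lowest in GKO and 67.4 the highest in WT (log2 fold change 1.43, SE 0.604, adjusted p = 0.56). Cyp2c67 also did not overlap, with 33.1 TPM the lowest in GKO and 27.1 the highest in WT (log2 fold change 0.82, SE 0.398, adjusted p = 0.593). Of all genes, 9.88% were higher without overlap. The summed TPM was 1.49-fold higher in GKO tumours, with overlapping groups.

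In non-tumour livers, 0 of the 10 genes and 0% of all 13768 genes were called between GKO and WT by limma. At an unadjusted p under 0.05 there were 4 members, all higher in GKO, as were 5.8% of all genes in either direction and 1.96% in this one, and voom called 0 members. Cyp2c69 was at 0.55, 0.208 and 0.608 TPM in WT and at 60.5, 1.95 and 21.3 in GKO, in reads 8, 3 and 9 against 809, 26 and 293. It had a log2 fold change of 3.46 (SE 0.994, adjusted p = 0.643). Cyp2c40, its neighbour, followed it over the samples, with 1.85, 0.601 and 2.29 TPM in WT and 49.8, 1.63 and 30.8 in GKO (log2 fold change 2.71, SE 1.04, adjusted p = 0.643). GKO non-tumours 1 and 3 were high for both genes and GKO non-tumour 2 was not. The sum over their paralog set, with Cyp2c67 and Cyp2c68, was 355 to 1080 TPM in WT and 390 to 788 in GKO, with overlap.

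Cyp2c37 was at 221, 91.2 and 268 TPM in WT non-tumour livers and at 665, 534 and 649 in GKO (log2 fold change 1.80, SE 0.414, adjusted p = 0.643). Cyp2c54 was at 134, 275 and 227 TPM against 382, 384 and 495 (log2 fold change 1.04, SE 0.315, adjusted p = 0.643). Cyp2c37, Cyp2c54 and Cyp2c69 did not overlap between the genotypes, as did not 3.88% of all genes in this direction. Cyp2c50, the third of that paralog set, did overlap, at 217, 566 and 314 TPM in WT and 451, 293 and 437 in GKO. The sum of Cyp2c37, Cyp2c50 and Cyp2c54 was 572 to 932 TPM in WT and 1210 to 1581 in GKO, without overlap. The summed TPM of all members was 1.23-fold higher in GKO, with overlapping groups. The median log2 fold change of all genes was -0.15 here.

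**Figure D5:**
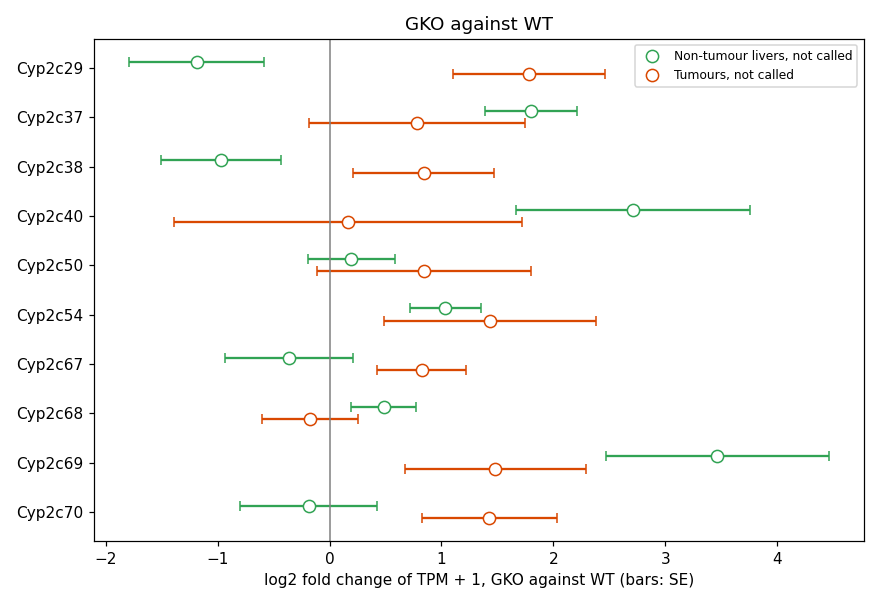
Log2 fold change of TPM + 1 between GKO and WT (horizontal axis, bars are SE) for the 10 Cyp2c genes, in non-tumour livers and in tumours, with open points because no gene had an adjusted p under 0.05. Cyp2c69 and Cyp2c40 lie farthest from 0, at 3.46 and 2.71 in non-tumour livers.

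In normal livers, 0 of the 10 genes and 0% of all 13099 genes were called between the genotypes by limma. At an unadjusted p under 0.05 there were 0 members and 3.96% of all genes, and voom called 0 members. The largest differences were again those of the pair known to be higher in females. Cyp2c69 had 2.08, 3.81 and 5.68 TPM in WT normal livers and 2.97, 0.28 and 1.26 in GKO (log2 fold change -1.04, SE 0.445, adjusted p = 0.999). Cyp2c40 had 4.19, 8.12 and 5.55 TPM in WT and 5.89, 1.95 and 1.73 in GKO (log2 fold change -0.83, SE 0.385, adjusted p = 0.999). Both pairs of groups overlapped. For the other 8 genes the log2 fold changes lay between -0.23 and 0.31.

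Non-tumour livers of DEN-treated mice were compared with normal livers of untreated mice to show the state of the tissue around the tumours. These comparisons share the non-tumour samples with those above and are given side by side only. In WT, 0 of the 10 genes were called, and 0.00744% of all 13440 genes were. At an unadjusted p under 0.05 there were 4 members, as were 24.4% of all genes, and voom called 0 members. Cyp2c29 had 84.6, 88.7 and 146 TPM in normal livers and 249, 445 and 319 in non-tumour livers (log2 fold change 1.66, SE 0.309, adjusted p = 0.114). Cyp2c38 had 21.0, 31.2 and 21.2 TPM against 53.2, 151 and 32.8 (log2 fold change 1.38, SE 0.524, adjusted p = 0.18). Cyp2c69 was lower without overlap, at 2.08, 3.81 and 5.68 TPM against 0.55, 0.208 and 0.608 (log2 fold change -1.68, SE 0.308, adjusted p = 0.114). Cyp2c40 was so too, at 4.19, 8.12 and 5.55 TPM against 1.85, 0.601 and 2.29 (log2 fold change -1.46, SE 0.334, adjusted p = 0.121). The third member lower without overlap was Cyp2c37, at 373, 333 and 298 TPM against 221, 91.2 and 268 (log2 fold change -0.92, SE 0.4, adjusted p = 0.21). Of all genes, 31% were higher and 2.9% lower without overlap, and the median of all genes was 0.32.

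In GKO, 0 of the 10 genes and 0% of all 13530 genes were called between non-tumour and normal livers by limma, and voom called 0 members. At an unadjusted p under 0.05 there was 1 member, Cyp2c69, as were 5.2% of all genes. It had 2.97, 0.28 and 1.26 TPM in GKO normal livers and 60.5, 1.95 and 21.3 in GKO non-tumour livers (log2 fold change 2.82, SE 0.985, adjusted p = 0.925). The groups overlapped, since GKO non-tumour 2 lay below GKO normal 1. Cyp2c37 had 368, 325 and 586 TPM in GKO normal livers and 665, 534 and 649 in GKO non-tumour livers (log2 fold change 0.57, SE 0.268, adjusted p = 1). Its lowest non-tumour value was below its highest normal value.

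The effects of tumour and of DEN treatment were also compared between the genotypes, by interaction terms in limma over 12 samples each. By adjusted p, 0 of the 10 genes differed in either, and voom called 0 members. For the tumour effect 0.0142% of all 14106 genes were called. Before adjustment 1 member, Cyp2c29, had a p under 0.05, as had 10.5% of all genes. For the effect in non-tumour livers 0% of all 13488 genes were called. Before adjustment 3 members, Cyp2c37, Cyp2c40 and Cyp2c69, had a p under 0.05, as had 6.15% of all genes.

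WT non-tumour 2 differed from the other WT non-tumour livers in several members at once. It had the highest Cyp2c67 of the 18 samples at 811 TPM, the lowest Cyp2c37 of all livers without tumour at 91.2 TPM, and the highest Cyp2c38 at 151 TPM. Cyp2c55, a Cyp2c gene known from the intestine and induced in liver by drugs, was at 196 TPM there and at 3.84 TPM or less in the other 17 samples. Without this sample 6 members were again called lower in WT tumours and 0 were called between GKO and WT non-tumour livers or between WT non-tumour and normal livers. The log2 ratio of the summed TPM between WT tumours and non-tumour livers was -1.73 in place of -2.11, and that between WT non-tumour and normal livers was -0.06 in place of 0.32. The log2 fold change in WT tumours was -3.03 in place of -3.66 for Cyp2c67 and -4.67 in place of -5.28 for Cyp2c38. Between WT non-tumour and normal livers that of Cyp2c38 was 0.77 in place of 1.38. For Cyp2c37 the value in that comparison was -0.45 in place of -0.92. Between GKO and WT non-tumour livers the log2 fold change of Cyp2c37 was 1.33 in place of 1.80.

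Of the 8 other Cyp2c genes listed, 7 were found, Cyp2c44 being an older symbol of Cyp2c23, and 3 passed the filter in the tumour comparisons. Cyp2c23, an epoxygenase that lies apart from the cluster at chr19:44005022-44029208, had 306, 517 and 309 TPM in WT non-tumour livers and 20.2, 19.6 and 78.0 in WT tumours. It was called lower in WT (log2 fold change -3.49, SE 0.557, adjusted p = 0.0213) and in GKO (-2.61, SE 0.315, adjusted p = 0.00675), where it went from 305, 246 and 406 TPM to 37.8, 71.2 and 47.7. Cyp2c39 and Cyp2c55 were not called in either genotype. Cyp2c52-ps, Cyp2c53-ps, Cyp2c65 and Cyp2c66 were at 1.35 TPM or less in every sample.

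The partners of the enzymes were followed in the same comparisons, where 4.23% of all genes were called in WT and 11.7% in GKO. Of the 4 electron donors, 0 were called in either genotype, and Por had 133, 238 and 356 TPM in WT non-tumour livers and 79.7, 75.3 and 122 in WT tumours (log2 fold change -1.30, SE 0.405, adjusted p = 0.143). The median log2 fold change of the 4 donors was -1.08 in WT, with 1 above 0. In GKO it was 0.08, with 2 above 0. Of the 2 epoxide hydrolases, Ephx2 was called lower in both genotypes. It went from 544, 480 and 796 TPM to 97.2, 84.5 and 242 in WT (log2 fold change -2.23, SE 0.444, adjusted p = 0.043) and from 682, 520 and 594 to 153, 238 and 307 in GKO (-1.41, SE 0.306, adjusted p = 0.0309). Of the 8 genes of haem synthesis, 1 was called lower in each genotype, Alad, which joins the first precursors of the haem ring. Its log2 fold change was -1.29 (SE 0.21, adjusted p = 0.0229) in WT and -0.88 (SE 0.211, adjusted p = 0.0397) in GKO.

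Of the 14 transcription factors of P450 genes, 0 were called in either genotype. Nr1i3, the receptor CAR, had the largest difference. It was at 31.7, 12.8 and 36.7 TPM in WT non-tumour livers and 1.75, 2.98 and 8.14 in WT tumours (log2 fold change -2.47, SE 0.547, adjusted p = 0.0592). In GKO it was at 27.3, 32.3 and 46.4 TPM against 0.123, 7.34 and 9.08 (log2 fold change -2.96, SE 0.78, adjusted p = 0.0505). The groups did not overlap in either genotype, as for 13.9% of all genes in this direction in WT and 12.7% in GKO. Hnf4a was at 133, 183 and 176 TPM in WT non-tumour livers and 166, 162 and 217 in WT tumours (log2 fold change 0.15, SE 0.249, adjusted p = 0.804).

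The members were also compared by the shape of their levels over the 18 samples, as the mean absolute difference between log2(TPM + 1) profiles centred on their own means. The closest pair was Cyp2c37 with Cyp2c54, at 0.381, and the next were Cyp2c50 with Cyp2c54 at 0.511 and Cyp2c37 with Cyp2c50 at 0.518, all 3 within one paralog set. In the other set Cyp2c67 was closer to Cyp2c38, at 0.558, than to Cyp2c68, at 1.35, or Cyp2c40, at 2.31. Cyp2c68 was closest to Cyp2c70, at 0.745, and Cyp2c40 to Cyp2c69, at 1.08. These distances describe samples that share their groups and have no test.

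Outside the family, the 8 genes whose profile was most like that of the summed TPM, among the 6846 genes that averaged 5 TPM or more, were Car1, Ablim3, Prlr, Csrp2, Hnf4aos, Baat, S100a1 and Hibadh, at 0.242 to 0.372. Car1, a carbonic anhydrase, had means of 14.6 TPM in WT non-tumour livers and 1.24 in WT tumours, and of 14.8 and 3.46 in GKO. Baat, which joins bile acids to amino acids, had means of 198 and 57.8 TPM in WT and 203 and 114 in GKO. Prlr, the prolactin receptor, had 11.7 and 2.54 TPM in WT and 14.7 and 4.39 in GKO. Hnf4aos is an antisense transcript of Hnf4a, and whether the counting used strand is not given in the sources used here, which leaves its level uncertain where the transcripts overlap.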

How the data were processed

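RNA of 18 samples in 6 groups of 3 was analysed, with groups taken from the genotype and tissue labels. The authors aligned reads to mm10 with STAR 2.7.3a and counted them with featureCounts 2.0.0, and deposited TPM values, which sum to 1000000 per sample. The gene annotation and the handling of multi-mapping reads are not given in the sources used here. The tests were those of limma 3.58.1, run in R 4.3.3 with a trend in eBayes, on log2(TPM + 1). Genes that averaged 0.5 TPM or more in the samples compared were tested, with Benjamini-Hochberg adjustment over all of them. Fold changes are on this scale, which understates those of low genes. No test was run on sums. A comparison was fitted on its own 6 samples, and a difference between effects on 12.

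Reads were recovered as TPM times GENCODE M21 exonic length, and 97.95% or more of values up to 30 reads were whole within 0.02. Depth limits genes near the floor of 3 reads, for counting error only. Coding sequences, in place of proteins, gave the identities. The named genes were all members, the listed partners, markers beside a result, and the 8 genes most like the summed TPM. Members and lists were chosen with earlier results of these data known. The limma fits were tested on simulated data with known changes, and the other steps were not. Other tools were Python 3.11.15, numpy 2.4.6, pandas 2.3.3, matplotlib 3.10.9 and Biopython 1.88. Alternatives were a pseudocount of 0.1, no filter, a minimum mean of 5 TPM, quantile normalization, centring on the median, one fit of all 18 samples, no trend, a replicate block and leaving out each replicate, with voom, an average of WT tumours 1 and 2, and paralog sums with each replicate left out added after seeing the data.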

Additional observations from a re-analysis of the deposited data

Results flagged for a closer look

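The 4 results below are differences between the genotypes in the effect of tumour or of DEN treatment. Each had an unadjusted p under 0.05 in limma's interaction term and failed the adjustment over all genes. The median of all genes was 0.23 for the tumour effect and -0.22 for the effect in non-tumour livers.

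The log2 fold change of Cyp2c29 from non-tumour livers to tumours was -5.06 in WT and -2.10 in GKO, a difference of 2.97 (SE 0.991, adjusted p = 0.43).

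In non-tumour against normal livers, Cyp2c69 differed between the genotypes by 4.50 on the log2 scale (SE 1.19, adjusted p = 0.724), with WT non-tumour livers below and GKO non-tumour livers above their normal livers in the mean. Cyp2c40 differed by 3.54 (SE 1.22, adjusted p = 0.724) and Cyp2c37 by 1.49 (SE 0.507, adjusted p = 0.724), both in the same direction. Cyp2c40 and Cyp2c69 are close paralogs whose reads may be shared, so they are not separate observations.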

How the results depend on the processing

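In WT tumours against non-tumour livers, 5 to 7 genes were called with one sample left out, and 5 with WT tumours 1 and 2 averaged as 1 sample. In GKO the count was 0 to 5 with one sample left out and 1 with no filter on low values, which adds genes to the adjustment. The counts in the other comparisons were 0 under every alternative run. The log2 ratio of the summed TPM between GKO tumours and non-tumour livers was -1.83, and -1.46 without Cyp2c37, the most abundant member. Between WT non-tumour and normal livers it was 0.32, and -0.16 with each sample scaled to the same median TPM. With a minimum mean of 5 TPM, Cyp2c38, Cyp2c40 and Cyp2c69 gave no value in some comparisons. No called value changed its direction. A block for the replicate number called 6 members in WT and 5 in GKO, so it changed no count of members. Its count over all genes was 361 in place of 592 in WT and 1436 in place of 1652 in GKO. Same-numbered samples correlated by -0.299 to 0.245 in their deviations from the group means and not over 0.1 in every pair of any comparison, so the numbers were not taken as pairs. Between GKO tumours and non-tumour livers all 6 samples correlated best with their own number, at 0.041 to 0.119. So did 5 samples between GKO and WT tumours, which are from different mice, so such a match does not show pairs. Depth limits Cyp2c69 and Cyp2c38, with as few as 1 and 0 reads in a tumour.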
